A study of Rattus norvegicus with 4 samples.

Results

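Genes that carry out mitosis were examined in NR8383, a macrophage line from the air spaces of rat lung that was started from the lavage of a normal rat. The genes were taken from a list of 44 symbols for the mitotic spindle, the kinetochore and cytokinesis. Of these, 39 were measured, among 16581 named genes on the array. Cdc25c, Cenpe, Spc24, Anln and Top2a had no probe that could be named and were not analysed here. Only 1 group entered: 4 cultures of NR8383 cells given titanium dioxide particles (NM105, also sold as P25, a mixture of anatase and rutile) at 3 cm2 of particle surface per cm2 of culture for 4 h, after 20 passages. The untreated cultures of the study were not analysed here, so nothing below is an effect of the particles. Each culture (replicates 1 to 4) gave RNA for 1 array with a single dye, and the 4 arrays lay on 1 slide.

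A dividing cell enters mitosis when cyclin B binds and activates the kinase CDK1. Kinetochores built on the centromeres then attach the chromosomes to the spindle, the spindle checkpoint holds back the anaphase-promoting complex until all are attached, and cytokinesis parts the daughter cells. Most of these genes are transcribed late in the cell cycle and are nearly silent in resting cells, so their RNA is widely used as a sign of dividing cells. Tissue macrophages in the lung divide rarely, whereas NR8383 is kept as a growing line. In RNA from whole cultures, fewer dividing cells and less RNA in each of them cannot be told apart.

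Promoters of such genes often hold a CCAAT box, which the factor NF-Y binds, and a cell cycle genes homology region (CHR), which the MuvB complex binds together with B-MYB and FOXM1. In the RefSeq promoter windows of build GRCr8, which run from 250 bases before to 50 bases after the start of a gene, 39 of the 44 listed genes were found, with 40 windows. The letters CCAAT, on either strand, were in 30 of these 40 windows (75%) and in 37.5% of all 33469 windows. The letters TTTGAA, a common form of the CHR, were on either strand in 27 of 40 (67.5%) and in 18.3% of all windows. Both were in 21 windows (52.5%), and in 7.41% of all. These shares describe letters in a window and no binding was measured. Ccna2, Aurkb, Incenp, Tpx2 and Racgap1 had no entry. The windows of 4 genes are shown, chosen by their spread between arrays. Mki67, Bub1 and Knstrn differed most between the arrays among the genes that could be tested. Cdca3 had one of the smaller spreads, the smallest under the main scaling but not under several others. Any link between these letters and the spread was not tested. Capitals mark each CCAAT or TTTGAA on either strand. In Mki67 a TTTGAA and a reversed CCAAT overlap. The Bub1 window holds neither run of letters.

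Mki67, promoter, GRCr8 chr1:199952544-199952843, minus strand: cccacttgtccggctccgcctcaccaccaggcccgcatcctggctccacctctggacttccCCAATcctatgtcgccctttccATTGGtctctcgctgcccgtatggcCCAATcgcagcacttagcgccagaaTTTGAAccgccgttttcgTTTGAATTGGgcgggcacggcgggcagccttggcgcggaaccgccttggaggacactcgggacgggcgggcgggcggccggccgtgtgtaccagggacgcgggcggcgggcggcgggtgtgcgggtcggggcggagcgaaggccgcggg
Bub1, promoter, GRCr8 chr3:135504872-135505171, minus strand: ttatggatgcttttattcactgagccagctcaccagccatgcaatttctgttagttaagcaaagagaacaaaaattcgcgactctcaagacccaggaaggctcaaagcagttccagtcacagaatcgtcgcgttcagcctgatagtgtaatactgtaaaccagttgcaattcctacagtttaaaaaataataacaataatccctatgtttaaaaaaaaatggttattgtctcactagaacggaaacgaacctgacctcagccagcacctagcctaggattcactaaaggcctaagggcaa
Knstrn, promoter, GRCr8 chr3:126254446-126254745, plus strand: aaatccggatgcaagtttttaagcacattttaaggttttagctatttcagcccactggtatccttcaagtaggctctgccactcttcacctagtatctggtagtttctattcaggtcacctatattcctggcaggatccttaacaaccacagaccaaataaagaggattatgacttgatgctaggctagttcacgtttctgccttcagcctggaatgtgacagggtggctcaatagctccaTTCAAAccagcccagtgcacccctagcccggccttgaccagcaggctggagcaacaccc
Cdca3, promoter, GRCr8 chr4:159320953-159321252, plus strand: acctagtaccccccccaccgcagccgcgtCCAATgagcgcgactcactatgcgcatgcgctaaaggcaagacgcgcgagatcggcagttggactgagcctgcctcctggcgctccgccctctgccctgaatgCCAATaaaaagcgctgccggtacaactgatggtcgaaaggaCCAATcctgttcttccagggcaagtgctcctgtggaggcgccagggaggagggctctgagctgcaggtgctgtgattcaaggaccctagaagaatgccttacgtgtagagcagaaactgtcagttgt

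The 4 arrays differed in brightness before any scaling. Their 75th percentiles of processed intensity, taken over probes detected throughout, were 1431, 585, 767 and 831 units for replicates 1 to 4. Named genes with signal well above background, by the scanner software's own call, numbered 7549, 5978, 6534 and 6517. The cells looked like macrophages: 11 of 12 macrophage markers were detected on all 4 arrays, Adgre1 being the exception, and so were 4 of 7 measured alveolar macrophage markers, while Marco and Car4 were on none. No epithelial marker of 7 and no fibroblast marker of 6 was detected on all arrays. Of the other lineages, 3 of 5 endothelial markers (Pecam1, Cdh5 and Vwf), 1 of 6 T cell markers (Cd4) and 1 of 3 B cell markers (Pax5) were.

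Nearly all of the mitosis genes gave signal. Of 39 measured, 34 (87.2%) were well above background on all 4 arrays, against 35.2% of all named genes, 37 of 65 other mitosis genes (56.9%) and 33 of 44 genes of DNA replication (75%). The lists were drawn up with earlier results of these arrays known, so the shares are descriptions. A further 4 members were detected on some arrays and 1 on none. Ttk, the checkpoint kinase MPS1, Kif23, a motor of the central spindle, and Ect2, an activator of RhoA in cytokinesis, were missed on replicate 2 alone. Nuf2, a subunit of the NDC80 complex, was detected on replicate 1 alone, and Cenpf, a large kinetochore protein, on no array.

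These 5 genes were dim. The intensity of Ttk was 117, 16.8, 22.9 and 36.1 units on replicates 1 to 4. Kif23 gave 72.2, 11.7, 23.1 and 32.6 units, and Ect2 91.7, 17.9, 37.9 and 38.8. On every array all 3 exceeded the negative control spots' 99th percentile, which was 5.62, 5.48, 5.07 and 5.96 units. Nuf2 gave 37.5, 5.21, 17.7 and 11.9 units, so replicate 2 lay within the range of the controls. Cenpf gave 8.05, 3.55, 3.71 and 3.77 units, and lay above the controls' 99th percentile on replicate 1 alone.

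**Figure D1:**
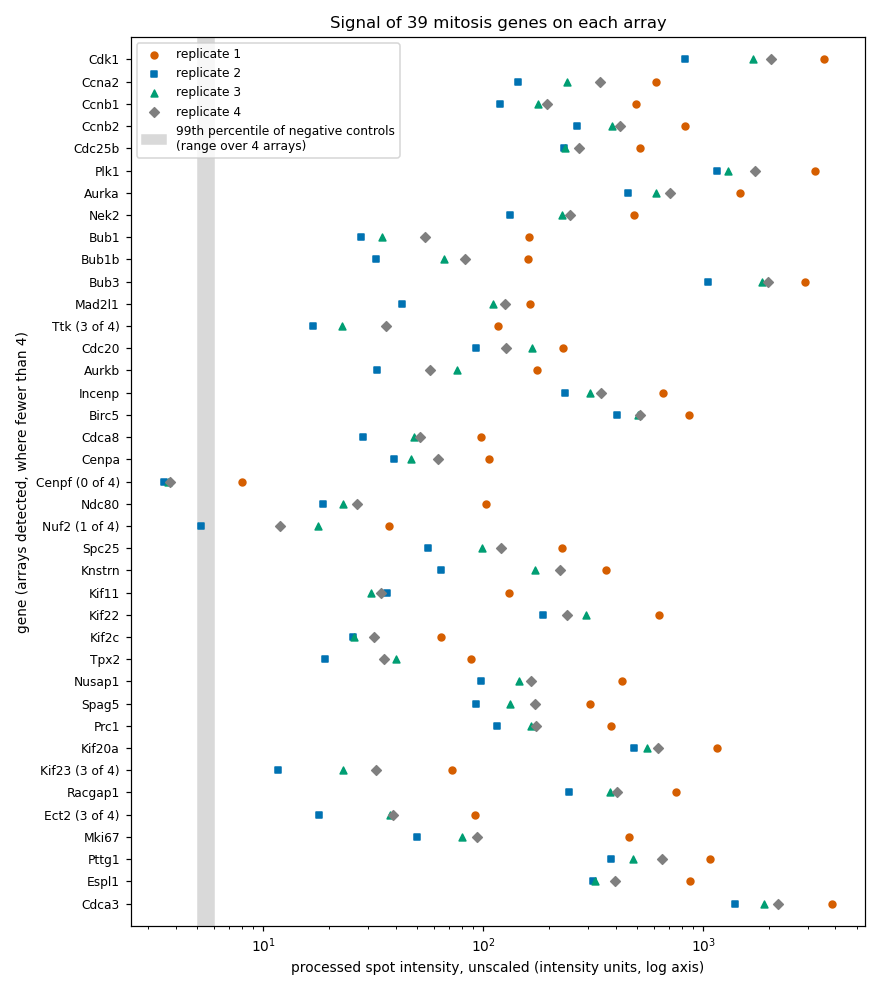
Processed spot intensity before scaling (log axis, intensity units) of the 39 measured mitosis genes, with 1 marker for each of the 4 arrays and a grey band for the 99th percentile of negative controls, 5.07 to 5.96 units. Replicate 1 is the brightest marker in every row, as that whole array was brighter. Cenpf lies just above the band on replicate 1 and below it on the others, and Nuf2 on replicate 2, at 5.21 units, lies within it.

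Levels below are log2 processed intensity minus the array's own 75th percentile over the probes detected on all arrays. They compare the same gene between arrays, and a gene's level is that of its brightest probe. Levels of different genes are not set against each other, because each probe has its own brightness.

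After this scaling the 34 genes detected throughout still lay highest on replicate 1 and lowest on replicate 2. Replicate 1 was the highest array for 25 of 34 genes, against 37.8% of the 5824 named genes with any probe detected throughout. For 3 genes replicate 2 was highest (28% of all genes), for 2 replicate 3 (19.1%) and for 4 replicate 4 (15.1%). For 20 of 34 genes replicate 2 was lowest (32.2% of all genes), for 11 replicate 3 (22.2%), for 2 replicate 4 (20.6%) and for 1 replicate 1 (25%). The median difference from the mean of the other 3 arrays was 0.32 on replicate 1 for the members and 0.08 for all genes. On replicate 2 it was −0.29 for the members and −0.02 for all genes. On replicates 3 and 4 the members' medians were −0.07 and −0.02, against −0.01 and −0.02 for all genes.

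The choice of scaling moves the zero of these differences by more than 0.1 on the log2 scale: the median of all genes on replicate 1 was −0.06 when each array was scaled to its 75th percentile over all probes and −0.11 after normexp background correction. The members were therefore also set against the median of all genes on the same array. On replicate 1, 30 of 34 members lay above it, by a median of 0.24, and the other 4 were Bub3, Mad2l1, Cdc20 and Birc5. This count was 28 after quantile normalization and 26 after normexp. Another reference point shifts members and all genes alike, so it cannot change the count. On replicate 2, 27 of 34 lay below the median of all genes, by a median of 0.28. The other 7 were Cdc25b, Plk1, Birc5, Kif11, Kif2c, Kif20a and Espl1. That count, which another reference point cannot change either, was 27 after quantile normalization and 26 after normexp. The count of genes highest on replicate 1, in contrast, was 16 and 15 of 34 under scaling to all probes and under normexp. The share of all genes highest there fell too, from 37.8% under the main scaling to 23.8% and 20.5%.

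Between the arrays farthest apart, 56.4% of all genes were higher on replicate 1 than on replicate 2, and 31 of 34 members were. So were 24 of 37 other mitosis genes (64.9%) and 26 of 33 genes of DNA replication (78.8%). The median difference was 0.45 for the members, 0.25 and 0.17 for these 2 lists, and 0.07 for all genes. At least 2-fold higher were 6 members, against 3.23% of all genes, and no member was 2-fold lower, against 139 of 5824 genes. These 6 were Mki67, Bub1, Bub1b, Aurkb, Ndc80 and Knstrn. Replicates 3 and 4 lay close together for members and all genes alike. No member differed 2-fold, against 0.34% of all genes. The median difference was −0.08 for the members and 0.002 for all genes.

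**Figure D2:**
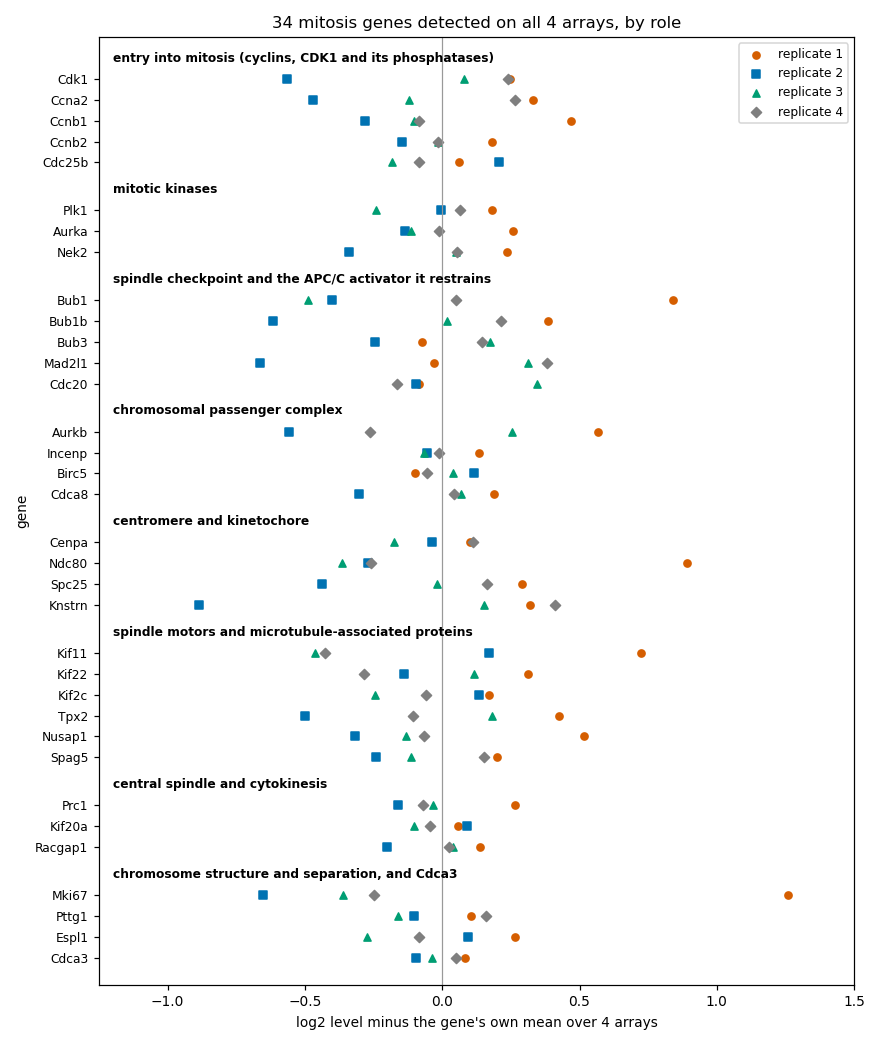
Log2 level of each of the 34 mitosis genes detected on all 4 arrays minus its own mean, in rows grouped by role, with 1 marker per array. Replicate 1 is the rightmost marker for 25 genes and replicate 2 the leftmost for 20, and Mki67 has the widest row.

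Genes that drive entry into mitosis followed this order with 1 exception. Cdk1, the kinase at the centre of the switch, had levels of 1.31, 0.50, 1.14 and 1.30 on replicates 1 to 4, so that replicate 2 lay apart from the other 3. Ccna2, the cyclin of S phase and early mitosis, was at −1.23, −2.03, −1.68 and −1.29, with replicates 1 and 4 high and replicate 2 low. Ccnb2, a mitotic B-type cyclin, was flatter, at −0.80, −1.12, −0.99 and −0.99. Ccnb1, its relative, was at −1.53, −2.29, −2.10 and −2.09 and was also highest on replicate 1. Cdc25b, a phosphatase that activates CDK1, averaged −1.53 ± 0.17 (SD, n = 4) and was highest on replicate 2.

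The 3 genes grouped here as mitotic kinases, which leave out Cdk1 and Aurkb, were all highest on replicate 1. Plk1, which acts at centrosomes, kinetochores and the midbody, was at 1.17, 0.99, 0.75 and 1.06. Aurka, the spindle pole kinase, was at 0.04, −0.35, −0.33 and −0.23. Nek2, which helps to part the centrosomes, averaged −1.80 ± 0.24 (SD, n = 4).

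Checkpoint genes divided. Bub1, a kinase of the unattached kinetochore, was at −3.14, −4.39, −4.47 and −3.93, with replicate 1 above the other 3. Bub1b, which encodes BUBR1 of the complex that restrains the anaphase-promoting complex, was at −3.16, −4.17, −3.53 and −3.33, with replicate 2 lowest. The remaining 3 were not highest on replicate 1. Mad2l1, the checkpoint protein MAD2, was at −3.14, −3.77, −2.80 and −2.73, so that replicates 3 and 4 led and replicate 2 was again lowest. Bub3, which anchors BUB1 and BUBR1, was at 1.02, 0.85, 1.27 and 1.24 and was highest on replicate 3. Cdc20, the activator that the checkpoint holds back, was at −2.64, −2.65, −2.20 and −2.71, with replicate 3 above the rest.

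The chromosomal passenger complex joins the kinase AURKB to INCENP, survivin (Birc5) and borealin (Cdca8), yet its genes did not share 1 spread. Aurkb was at −3.03, −4.15, −3.34 and −3.86 on replicates 1 to 4, and its highest array lay 2.18-fold above its lowest. Incenp, the scaffold, was at −1.12, −1.31, −1.33 and −1.27, a range of 1.15-fold. Birc5 was at −0.74, −0.52, −0.60 and −0.69 and was the only member lowest on replicate 1. Cdca8 averaged −4.06 ± 0.21 (SD, n = 4).

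Kinetochore genes ranged widely in spread. Ndc80, which grips microtubule ends, was at −3.80, −4.96, −5.06 and −4.95, with replicate 1 alone high. Knstrn, or kinastrin, which works with astrin at attached kinetochores, was at −1.98, −3.19, −2.15 and −1.89, with replicate 2 alone low. Cenpa, the histone H3 variant that marks centromeres, was at −3.75, −3.89, −4.03 and −3.74, without an array that stood apart. Spc25, a partner of NDC80, averaged −2.94 ± 0.32 (SD, n = 4) and was highest on replicate 1.

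All 6 spindle motors and microtubule-associated proteins were highest on replicate 1. Kif11, the motor Eg5 that pushes spindle poles apart, was at −3.45, −4.00, −4.63 and −4.60, and replicates 3 and 4, not replicate 2, were low. Kif22, a chromosome-arm motor, was at −1.19, −1.64, −1.38 and −1.78. Means of the other 4 were −4.64 ± 0.19 for Kif2c, a microtubule depolymerase, −4.44 ± 0.40 for Tpx2, an activator of AURKA, −2.26 ± 0.36 for Nusap1, which bundles spindle microtubules, and −2.42 ± 0.21 for Spag5, or astrin (SD, n = 4 each).

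Genes of the central spindle and cytokinesis had small spreads where they were detected on all arrays. Prc1, which bundles the central spindle, was at −1.91, −2.34, −2.21 and −2.25, with replicate 1 highest. Kif20a, the motor MKLP2, was at −0.30, −0.27, −0.47 and −0.41. Racgap1, a partner of KIF23 in centralspindlin, was at −0.92, −1.26, −1.02 and −1.03. Kif23 and Ect2, which missed detection on replicate 2, were dimmest there too and spread more, with SDs of 0.57 and 0.44.

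The last group held the widest and the narrowest spread of all 34 under the main scaling. Mki67, which encodes the Ki-67 antigen that coats mitotic chromosomes, was at −1.64, −3.55, −3.26 and −3.15 on replicates 1 to 4, an SD of 0.86. Its replicate 1 value lay above the other 3, which were close together. Cdca3, a trigger of mitotic entry, was at 1.43, 1.25, 1.31 and 1.40, an SD of 0.08. Its rank depended on the scaling: Incenp was narrowest when arrays were scaled to all probes or to the median, Kif20a after quantile normalization (0.08, with Cdca3 at 0.12) and Cdc25b after normexp (0.06, with Cdca3 at 0.11). It also changed with 1 array left out, Incenp being narrowest without replicate 1, Birc5 without replicate 2 and Cdc20 without replicate 3. Mki67 was widest in each of these settings except without replicate 1, where Knstrn was, at 0.69. Pttg1, or securin, averaged −0.51 ± 0.16 and Espl1, the separase it inhibits, −0.98 ± 0.23 (SD, n = 4 each).

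Spread between arrays went with brightness. The median SD was 0.23 over the 34 members and 0.23 over all genes. It was 0.17 over the 16 members above the median level of all detected genes and 0.38 over the 18 below it. For all genes these medians were 0.19 and 0.27. An SD above 0.5 was found for 6 members, against 5.61% of all genes: Mki67 at 0.86, Bub1 at 0.61, Ndc80 and Knstrn at 0.60, Kif11 at 0.56 and Aurkb at 0.50. All 6 belonged to the dimmer genes. A range of 2-fold or more between arrays was found for 8 members, these 6 and Bub1b and Mad2l1, against 8.98% of all genes. The narrowest spreads were those of Cdca3 at 0.08, Kif20a at 0.09, Incenp at 0.09 and Birc5 at 0.10.

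Replicates 1 and 2 set many of these values. Without replicate 1 the SD of Mki67 was 0.21, that of Bub1 0.29, that of Ndc80 0.06 and that of Kif11 0.35. Those of Nusap1 and Incenp were then 0.13 and 0.03. Without replicate 2 the SD of Knstrn was 0.14, that of Nek2 0.11, that of Spc25 0.16 and that of Cdca8 0.08. In all, the SD fell by more than 1.5 times for 10 of 34 members without replicate 1 and for 10 without replicate 2. Without replicate 3 it did so for 3. No such count over all genes is given here. The median SD of all genes fell too: without replicate 1 it was 0.19, and that of the members 0.20. Without replicate 2 it was also 0.19, and 0.20 over 37 members. After normexp correction, which adds an offset of 50 and shrinks log2 differences of dim genes, the 6 SDs ran from 0.12 for Aurkb to 0.50 for Mki67.

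**Figure D3:**
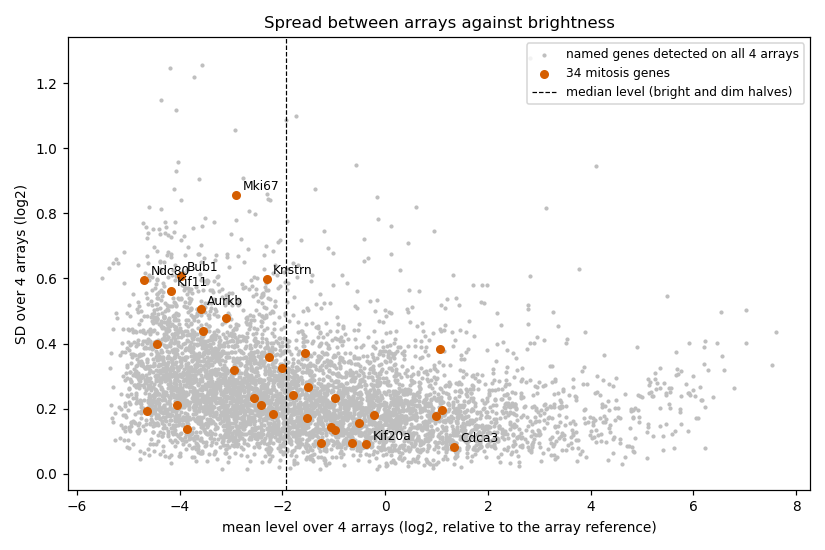
SD over the 4 arrays against mean level, both on the log2 scale, for named genes detected on all 4 arrays (grey) and the 34 mitosis genes among them (orange), with a dashed line at the median level. The 6 labelled members with an SD above 0.5 lie left of the line, and Kif20a and Cdca3, at 0.09 and 0.08, lie right of it.

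Array brightness and some cell type markers moved with these results, and their values are given beside them. The members' median difference on replicate 1 was 0.21 above the median level and 0.47 below it, against 0.01 and 0.16 for all genes. On replicate 2 it was −0.16 and −0.41, against 0.04 and −0.10 for all genes. Set against the median of all genes on the same side of the median level, 29 of 34 members were higher on replicate 1 and 27 of 34 lower on replicate 2. The scaled median of the negative controls ran the other way and was −8.67, −7.35, −7.71 and −7.76 in replicate order, so a probe without signal read lowest on replicate 1. Macrophage markers were highest on replicate 1 in 6 of 11 cases and lowest there in 3, Itgam, Spi1 and Tyrobp. Replicate 2 was lowest in 2 cases, Ptprc and Aif1. The median difference of these markers was 0.16 on replicate 1 and −0.01 on replicate 2. Ptprc, the pan-leukocyte antigen CD45, was at −1.62, −2.70, −2.59 and −2.33, and Aif1, a macrophage actin-binding protein, at −1.06, −2.27, −1.55 and −1.54, both highest on replicate 1 and lowest on replicate 2. Of the 3 endothelial markers detected throughout, Vwf, the von Willebrand factor, was at 0.47, 1.33, 1.25 and 1.05 and so lowest on replicate 1. Cdh5 was also lowest there, at −5.75, −4.95, −5.32 and −5.39. Pecam1 went the other way, at −2.29, −2.39, −2.66 and −2.74, and was highest on replicate 1. The part of array brightness and of these markers in the members' order was not tested.

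Other genes of the same processes were then described beside the members. Of 37 other mitosis genes detected on all arrays, 18 were highest on replicate 1 and 15 lowest on replicate 2. Their median difference was 0.28 on replicate 1 and −0.03 on replicate 2. Over the 17 of them above the median level it was 0.06 and 0.15, and 9 of these 17 were highest on replicate 2. Over the 20 below that level it was 0.34 and −0.38. By list order, Kif18b, a motor that shortens astral microtubules, was at −0.69, −0.68, −0.92 and −1.01, and Kifc1, a minus-end motor, at −0.73, −0.49, −0.73 and −0.62. Cenpl, of the inner kinetochore, was at −3.10, −3.97, −3.02 and −3.27. The widest spreads were 0.81 for Cep55, which acts in abscission, at −3.32, −5.12, −4.90 and −4.15, and 0.67 for Bora, an activator of AURKA and PLK1, at −3.42, −5.01, −4.50 and −4.06. Both were highest on replicate 1 and lowest on replicate 2.

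Genes of DNA replication were described in the same way. Of 33 detected on all arrays, 16 were highest on replicate 1 and 14 lowest on replicate 2, with median differences of 0.12 and −0.13. Pcna, the sliding clamp of DNA polymerase, was at −0.39, −0.08, 0.48 and 0.19, and so lowest on replicate 1. The helicase subunits Mcm2 and Mcm3 were nearly flat, Mcm2 at 2.57, 2.53, 2.36 and 2.47 and Mcm3 at 1.05, 0.94, 0.85 and 1.06. The widest spreads in this list were those of Rfc4, a clamp loader subunit, at −5.96, −4.37, −3.78 and −3.33, and of Dut, which removes dUTP, at −1.17, −1.70, −0.80 and −0.91. No test between the lists was made.

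**Figure D4:**
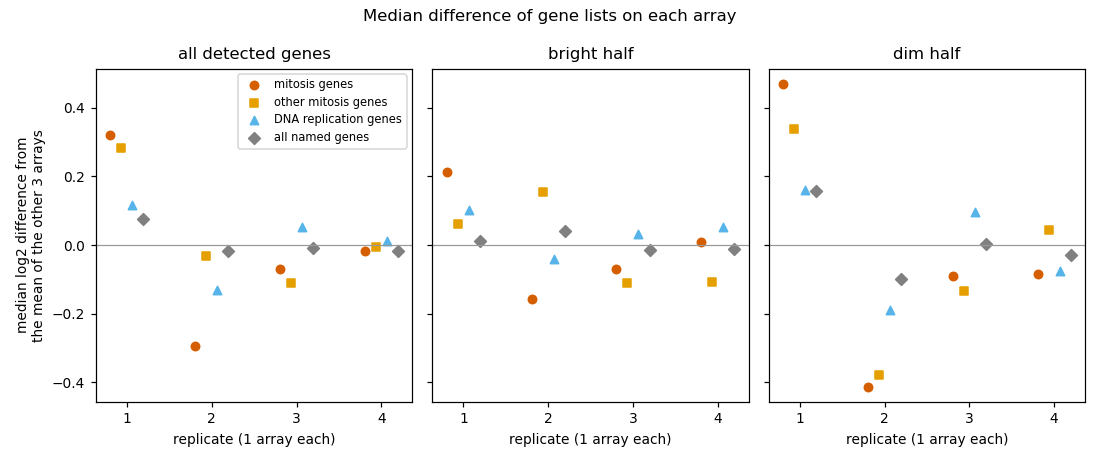
Median log2 difference of each gene list on 1 array from the mean of the other 3 arrays, for all detected genes (left), those above the median level (middle) and those below it (right). The mitosis genes are at 0.32 on replicate 1 and −0.29 on replicate 2 in the left panel, where all named genes are at 0.08 and −0.02.

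Some probes were printed at several spots, which allowed arrays to be set against the error between spots. A limma moderated F test was fitted to all 1594 probes with 2 or more spots that were detected on all arrays. It covered 17 of the members, and the spots of a probe share 1 culture's RNA, so its p-values concern arrays and not cultures. With an adjusted p under 0.05 and a range between arrays of 2-fold or more, it called 3 of the 17, against 4.25% of 871 genes tested. Mki67, at 10 spots, differed 3.76-fold between replicates 1 and 2 (limma adjusted p = 1.85e-24). Bub1 differed 2.51-fold between replicates 1 and 3 (limma adjusted p = 0.000694), and Knstrn 2.45-fold between replicates 4 and 2 (limma adjusted p = 0.00172), both at 2 spots.

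With no fold minimum the test called 15 of 17 members, against 84.6% of genes. Cdk1 differed 1.75-fold (limma adjusted p = 1.39e-23), Nusap1 1.78-fold (limma adjusted p = 0.000252) and Cdca3 1.13-fold (limma adjusted p = 2.00e-06). Of the 15, 12 were highest on replicate 1 and 12 lowest on replicate 2. The same counts over all genes called by this test are not given here, so these 2 counts are a description only. Kif20a and Racgap1 missed the threshold (limma adjusted p = 0.0920 and 0.101). The SD between spots of a member's probe ran from 0.046 to 0.24. Without replicate 1 the call with the fold minimum was lost for Mki67, whose range was then 0.41 on the log2 scale, and for Bub1, and without replicate 2 for Knstrn. After normexp the calls of Bub1 and Knstrn were lost too, and that of Mki67 stayed. Of the other mitosis genes 8 could be tested and 14 of the replication genes, and with the fold minimum limma called 0 of either, with 5 and 10 past an adjusted p under 0.05 without it.

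Further probes of the same gene gave a check on single probes. Of the 39 measured genes, 12 had more than 1 probe, with 17 probes beyond the brightest. Signal was well above background throughout for 6 of these 17, in part for 6 and nowhere for 5. Among the 6 detected throughout, 4 had the same highest array as the gene's brightest probe, against 54.8% of 1080 such probes over all genes, and 5 had the same lowest array, against 54.4%. The 6 belong to 5 genes, Racgap1 having 2 of them.

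Mki67 had 4 probes, all of them to the same transcript accession and all highest on replicate 1. Its probe next in brightness was at −2.37, −4.53, −4.54 and −4.10, an SD of 1.03, and differed 4.51-fold between replicates 1 and 3 (limma adjusted p = 1.46e-05). The other 2 probes were detected on replicate 1 alone, at −4.66 and −5.38 there, and at −5.36 or below elsewhere. Partly detected probes of other genes did not all follow their brightest probe. The dimmer probes of Ccna2 and Aurka, each detected on 2 arrays, were highest on replicate 3 where the brighter were highest on replicate 1. That of Cenpa, detected on 3 arrays, was highest on replicate 2 and not on replicate 4, and that of Bub1b, detected on 1, was highest on replicate 1 like the brighter one. The 3 probes of Racgap1 were all highest on replicate 1 and lowest on replicate 2, with SDs of 0.14, 0.25 and 0.24. Both probes of Prc1 had the same order of highest and lowest, the dimmer at −2.99, −3.81, −3.29 and −3.45.

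Other genes had probes that disagreed. The dimmer probe of Ccnb2 was at −2.56, −3.05, −2.41 and −2.90, highest on replicate 3 where the brighter one was highest on replicate 1, and both were lowest on replicate 2. Mad2l1 had a probe at −3.59, −3.81, −3.21 and −3.53, also highest on replicate 3 and lowest on replicate 2. A further Mad2l1 probe, 2 Ndc80 probes and 1 each of Nek2 and Espl1 gave no signal well above background. The dim Ndc80 and Mad2l1 probes carry other transcript accessions than the brightest probe of their gene, and those of Nek2 and Espl1 the same one. With the mean over all its probes the SD of Ndc80 was 0.29 in place of 0.60.

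**Figure D5:**
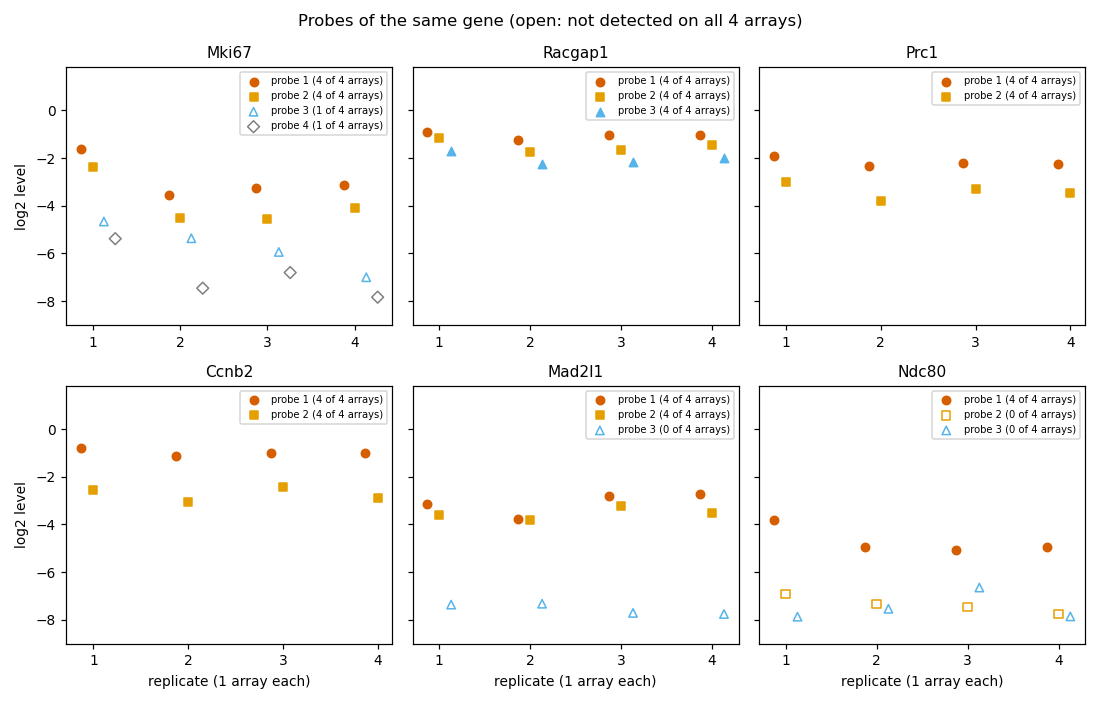
Log2 level on each array of every probe of 6 mitosis genes, filled where the probe was detected on all 4 arrays and open where it was not. All 4 Mki67 probes are highest on replicate 1, the 3 Racgap1 probes move in parallel, and the brighter probes of Ccnb2 and Mad2l1 have another highest array than the dimmer ones.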

How the data were processed

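Scanner files of 4 one-colour Agilent arrays were used, 1 per culture, which form 1 group. The deposited intensity of a spot was made with Agilent Feature Extraction 11.0.1.1 (protocol GE1_1100_Jul11, array design 074036), per the file headers: background-subtracted, detrended within the array, with low spots raised to a floor, and not normalized between arrays. RNA had a RIN above 7.5, per the labels. Control spots (58717 gene spots remained of 62976) and spots marked as outliers (634, 723, 486 and 644) were left out of levels. None was saturated. A probe's level is the mean log2 of its spots, from which each array's 75th percentile, over the 22.9% of 45598 probes detected throughout, was subtracted. A probe was detected when over 50% of its spots were well above background, and a gene when any probe was. Accessions were matched to RefSeq genes of GRCr8 (46.3% of probes). A gene took its brightest probe.

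Cultures are biological replicates, per the labels, and 4 arrays limit the precision. limma 3.58.1 in R 4.3.3 (lmFit, eBayes, Benjamini-Hochberg) was tested on simulated data. Python 3.11.15 was used otherwise. The members, lists, tests and alternatives were chosen with earlier results of these data known. By a written rule, values in all arrays were given for the first 2 members of each role and the 4 highest and lowest SDs. The rule also took members past limma and those with several detected probes. Singled out afterwards were Cdc20, Ccnb1, Bub3, the markers Ptprc, Aif1, Vwf, Cdh5 and Pecam1 and the 5 members not detected throughout. Normexp ran on the median signal, as the files used here hold no mean signal.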

Additional observations from a re-analysis of the deposited data

Results flagged for a closer look

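With 4 arrays, a value was marked when its gap to the nearest other array, divided by the gene's whole range, passed Dixon's 95% critical value. This held for 2 of 34 mitosis genes (5.88%), against 6.03% of all 5824 genes. Chance marks about 1 in 20 groups, so 2 marks are near what chance gives. Ndc80 was marked for replicate 1, where it was at −3.80 while replicates 2 to 4 gave −4.96, −5.06 and −4.95 (ratio 0.917). Cdc20 was marked for replicate 3, where it was at −2.20 while replicates 1, 2 and 4 gave −2.64, −2.65 and −2.71 (ratio 0.848).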

How the results depend on the processing

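No paired analysis was possible because only 1 group was analysed. The members' count highest on replicate 1, 25 of 34, was 16 with each array scaled to all probes and 15 after normexp. The counts for replicates 2, 3 and 4 were 5, 1 and 12 under the first setting and 8, 4 and 7 under the other. Scaling to the median of detected probes gave 8 for replicate 4, and the mean over a gene's probes gave 5 for replicate 3. With 1 array left out, the counts ran from 26 to 30 for replicate 1 and from 3 to 6 for replicate 2. They ran from 3 to 9 for replicate 3 and from 4 to 19 for replicate 4. The highest counts of replicates 2 to 4 came without replicate 1. These counts are of 34 members, but of 37 without replicate 2, which gave the 30. Of all genes, 43.6% to 48.2% were highest on replicate 1 with 1 other array left out. Without replicate 1, 39.4%, 30.2% and 30.4% of all genes were highest on replicates 2, 3 and 4. The median difference on replicate 4, −0.02, changed sign to 0.035 with scaling to all probes, 0.011 with the median, 0.0046 with quantile normalization and 0.0065 after normexp, all small beside the members' median SD. With 1 array left out it ran from −0.053 to 0.12, that of replicate 3 from −0.23 to 0.064, that of replicate 1 from 0.26 to 0.37 and that of replicate 2 from −0.30 to −0.19. On replicates 1 and 2 the sign held under all alternatives run, the smallest sizes being 0.080 and −0.093 after normexp. The limma count of 3 was 8 when a 1.5-fold range was enough, 15 without any minimum, 1 after normexp and from 1 to 3 with 1 array left out, 1 being without replicate 1. Further probes with the same highest array numbered 1 of 6 after normexp and 8 of 17 without the filter on dim probes. The count of members above the median of all genes was chosen after seeing the data, and so was the split at the median level. Detection on all arrays used held for 34 to 37 members, except that 25 had every probe detected. Asking for signal on any single array gave 38. The median SD ran from 0.16 to 0.26. The cause of the changes after normexp was not tested. Signal over background limits the dimmest members.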
